A study of Drosophila melanogaster with 7 samples.

Results

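The flamenco piRNA locus (lncRNA:flam) and 4 very long protein-coding genes of the gene-poor, repeat-rich parts of the chromosomes (Myo81F, lovit, CG17684 and CG41520) were examined for peaks of the zinc-finger protein CLAMP. They are 5 of the 17684 genes annotated on the 6 main arms of the Drosophila melanogaster genome, and 5 of the 319 genes of at least 50 kb. They were chosen by name with their peak densities already known, so the densities below are a description and carry no test. A gene's density is the number of peaks overlapping it by at least 1 bp, with a margin of 500 bp beyond both ends, per 100 kb of gene.

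The profiles come from CUT&RUN, where a nuclease tethered by an antibody frees the DNA at its target, applied to unfixed cells of embryonic lines. The S2 group is a male line profiled with rabbit anti-CLAMP (3 libraries), and the Kc group is a female line profiled with the same antibody (2 libraries, after another female sample had been dropped for lack of starting material). Each line has 1 control library made with rabbit IgG, and neither line carried a treatment. Each line is a single cell line, so the sex of the cells and all other differences between S2 and Kc cells cannot be told apart.

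CLAMP binds GA-rich DNA and helps the dosage compensation complex find the male X chromosome. The flamenco locus is a cluster of transposon remnants; in the somatic cells of the ovary its long RNA is cut into piRNAs, which guide the protein Piwi to silence transposons of the gypsy family. Genes in heterochromatin are often stretched over very long introns filled with repeats, and short reads from such DNA can match many places in the genome.

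On the main arms the lists held 8904, 8801 and 5535 peaks for S2 CLAMP replicates 1 to 3, 9832 and 8769 peaks for Kc CLAMP replicates 1 and 2, 1165 peaks for S2 IgG and 8615 peaks for Kc IgG. The Kc IgG list was therefore nearly as long as the Kc CLAMP lists, while the S2 IgG list was shorter than every other. List-wide densities were 6.65, 6.57 and 4.13 peaks per 100 kb in S2 CLAMP, 7.34 and 6.55 in Kc CLAMP, 0.870 in S2 IgG and 6.44 in Kc IgG. These lists hold no read numbers, so the depth behind any value is unknown, and a longer list and a more deeply sequenced library cannot be told apart.

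The label of the group was first set against the gene table, whose build is the one dm6 represents. lncRNA:flam lies on X from 21631891 to 21790731 (158.841 kb, a long non-coding RNA). Myo81F, which encodes an unconventional myosin, lies on 3R from 567076 to 2532932 and is the longest gene of the main arms at 1965.86 kb. lovit, which encodes the vesicular transporter that loads histamine in fly photoreceptors, lies on 3L from 25236940 to 25670980 (434.041 kb). CG17684 lies on 2R from 1866080 to 2262115 (396.036 kb) and CG41520 on 2R from 1649061 to 1778937 (129.877 kb).

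By length these genes ranked 1 (Myo81F), 3 (lovit), 4 (CG17684), 24 (lncRNA:flam) and 50 (CG41520) among all genes. The 1-Mb window centred on each held 3 genes for Myo81F, 9 for CG17684, 12 for lovit, 12 for CG41520 and 70 for lncRNA:flam, against a median of 155 and a 5th percentile of 95 over all genes. All 5 windows were therefore gene-poor by this measure, and the flamenco window was the least gene-poor of them. A long gene fills part of its own window, which limits the count. Myo81F, at 1965.86 kb, is longer than its window, so its count says nothing about the DNA around the gene. Chromatin marks were not measured here, so heterochromatin stands for position and gene poverty only.

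All 5 genes held peaks in all 7 libraries, where 22.9% of the 319 genes of at least 50 kb did so. The 5 rank from 1 to 50 by length, and a longer gene has more room for a peak. lncRNA:flam held 23, 41 and 18 peaks in S2 CLAMP, 38 and 36 in Kc CLAMP, 3 in S2 IgG and 38 in Kc IgG. Myo81F held 73, 163 and 103 peaks in S2 CLAMP, 167 and 212 in Kc CLAMP, 23 in S2 IgG and 431 in Kc IgG. Kc IgG alone placed 5.003% of its list in Myo81F, which was more than the 0.820, 1.85 and 1.86% of the S2 CLAMP lists, the 1.70 and 2.42% of the Kc CLAMP lists and the 1.97% of the S2 IgG list.

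lovit held 14, 36 and 22 peaks in S2 CLAMP, 18 and 35 in Kc CLAMP, 11 in S2 IgG and 53 in Kc IgG. CG17684 held 29, 54 and 30 peaks in S2 CLAMP, 19 and 31 in Kc CLAMP, 8 in S2 IgG and 44 in Kc IgG. CG41520 held 14, 36 and 15 peaks in S2 CLAMP, 7 and 6 in Kc CLAMP, 7 in S2 IgG and 13 in Kc IgG. In every gene S2 replicate 2 held more peaks than the other S2 libraries, and in every gene but Myo81F it held more than either Kc CLAMP library.

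**Figure D1:**
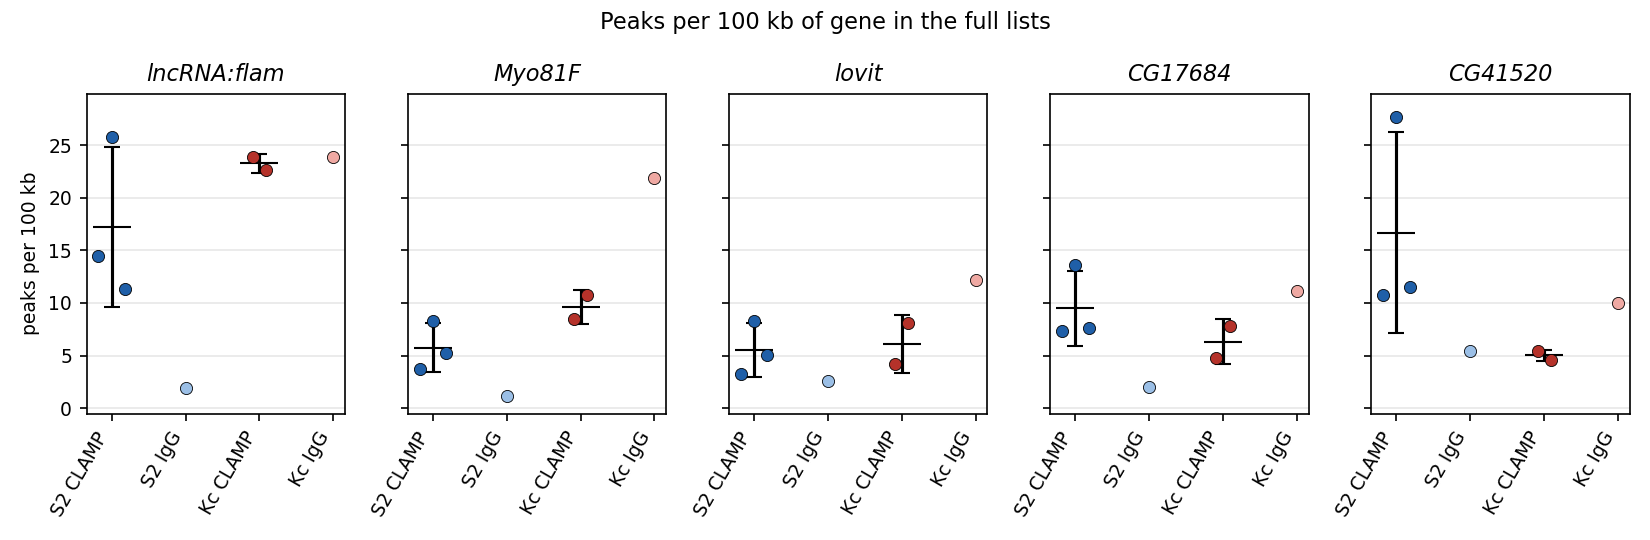
Peaks per 100 kb of gene (vertical axis) in each library, 1 panel per gene, with groups in the order S2 CLAMP, S2 IgG, Kc CLAMP and Kc IgG; dots are libraries and bars with whiskers are the mean ± SD. The 3 S2 CLAMP dots lie above the S2 IgG dot in every gene, and the 2 Kc CLAMP dots lie at or below the Kc IgG dot.

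Between the lines, CG41520 was denser in S2 cells and Myo81F in Kc cells, while the libraries of the other 3 genes overlapped. The density of CG41520 was 10.8, 27.7 and 11.5 peaks per 100 kb in S2 CLAMP and 5.39 and 4.62 in Kc CLAMP. Its means were 16.7 ± 9.57 (SD, n = 3) in S2 CLAMP and 5.005 ± 0.544 (SD, n = 2) in Kc CLAMP, a difference of 11.7. All 3 S2 libraries lay above both Kc libraries in CG41520, an order seen in 6.58% of the 319 long genes. Without S2 replicate 2 the difference was 6.16, and with lists cut to their 5535 strongest peaks it was 5.90. With lists cut to 1165 peaks it was 0.513 and the libraries overlapped.

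Myo81F had 3.71, 8.29 and 5.24 peaks per 100 kb in S2 CLAMP and 8.50 and 10.8 in Kc CLAMP. Every Kc value was above every S2 value, an order that 17.6% of the long genes shared. The means were 5.75 ± 2.33 (SD, n = 3) in S2 CLAMP and 9.64 ± 1.62 (SD, n = 2) in Kc CLAMP, a difference of -3.89. S2 replicate 2, at 8.29, was the S2 library nearest to the lower Kc value, and with lists cut to their 5535 strongest peaks the difference was -0.254, and at 1165 peaks 0.254. It was -0.695 at a q-value of 0.0001 or less. Divided by the list-wide density, Myo81F was at 0.558, 1.26 and 1.27 in S2 CLAMP and 1.16 and 1.65 in Kc CLAMP, so that on this scale the lines overlapped.

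lncRNA:flam had 14.5, 25.8 and 11.3 peaks per 100 kb in S2 CLAMP and 23.9 and 22.7 in Kc CLAMP. The means were 17.2 ± 7.62 (SD, n = 3) in S2 CLAMP and 23.3 ± 0.890 (SD, n = 2) in Kc CLAMP, and S2 replicate 2 exceeded both Kc libraries. The difference of -6.09 was smaller than the SD of the S2 libraries; it was -10.4 without S2 replicate 2 and -3.15 without S2 replicate 3. When CLAMP peaks that touch a peak of either IgG library were left out, the density of lncRNA:flam was 12.4 ± 6.31 in S2 and 8.18 in both Kc libraries, so the difference turned to 4.20.

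CG17684 had 7.32, 13.6 and 7.58 peaks per 100 kb in S2 CLAMP and 4.80 and 7.83 in Kc CLAMP, a difference in means of 3.20. lovit had 3.23, 8.29 and 5.07 in S2 CLAMP and 4.15 and 8.06 in Kc CLAMP, a difference of -0.576. In both genes the libraries of the lines overlapped and the difference was smaller than the SD of the S2 libraries. For CG17684 the difference was 1.14 without S2 replicate 2 and 1.68 without Kc replicate 1. For lovit the sign turned under several settings, with 0.576 without S2 replicate 1 and 1.38 without Kc replicate 2.

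Taken as 1 stretch of 3084.65 kb, the 5 genes had 4.96, 10.7 and 6.09 peaks per 100 kb in S2 CLAMP and 8.07 and 10.4 in Kc CLAMP. The means of 7.25 ± 3.04 (SD, 3 libraries) in S2 and 9.22 ± 1.63 (SD, 2 libraries) in Kc differed by -1.97, and the libraries overlapped. Myo81F makes up most of that stretch, so the pooled value follows it. The difference was -3.70 without S2 replicate 2 and -3.12 without Kc replicate 1, and -0.827 without S2 replicate 1 and -0.821 without Kc replicate 2. The direction turned, to 0.292, when peaks over IgG were left out, to 0.362 when all lists were cut to the 5535 strongest peaks, and to 0.340 at the 1165 strongest.

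The other 314 genes of at least 50 kb, which the choice did not use, had median densities of 2.86, 3.09 and 1.91 peaks per 100 kb in S2 CLAMP and 3.30 and 3.37 in Kc CLAMP. The difference of -0.717 between the means had p = 0.2 in an exact two-sided permutation test over the 10 ways to place 3 of the 5 libraries in S2, for which the smallest possible p is 0.1. Without S2 replicate 3 that difference was -0.361. By mean density among the 319 long genes, lncRNA:flam ranked 11 in S2 CLAMP, 15 in Kc CLAMP, 50 in S2 IgG and 2 in Kc IgG. CG41520 ranked 12 in S2 CLAMP, 132 in Kc CLAMP, 8 in S2 IgG and 48 in Kc IgG. Myo81F, at 94 in S2 CLAMP and 61 in Kc CLAMP, ranked 106 in S2 IgG and 3 in Kc IgG. In the Kc IgG library lncRNA:flam and Myo81F were thus among the densest of all long genes. lovit ranked 102 in S2 CLAMP, 117 in Kc CLAMP, 31 in S2 IgG and 21 in Kc IgG. CG17684 ranked 53 in S2 CLAMP, 112 in Kc CLAMP, 42 in S2 IgG and 32 in Kc IgG.

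Each line was then set against its own IgG library, since an IgG peak marks DNA released without a specific antibody. In S2 cells all 3 CLAMP libraries were denser than IgG in all 5 genes, an order found in 44.2% of the 319 long genes. CLAMP means exceeded S2 IgG by 15.3 peaks per 100 kb in lncRNA:flam, 4.58 in Myo81F, 3.00 in lovit, 7.49 in CG17684 and 11.3 in CG41520. Without S2 replicate 2 the excess was 5.77 in CG41520 and 1.61 in lovit. These differences compare libraries whose lists differ several-fold in length.

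In Kc cells the order was the opposite. Both CLAMP libraries were less dense than Kc IgG in 4 of the 5 genes, an order that 44.5% of the long genes had. Kc CLAMP minus Kc IgG was -12.3 peaks per 100 kb in Myo81F, -6.11 in lovit, -4.80 in CG17684 and -5.005 in CG41520. In lncRNA:flam the difference was -0.630, with Kc replicate 1 equal to Kc IgG at 23.9 and Kc replicate 2 below it, so the difference was -1.26 without replicate 1 and 0 without replicate 2. None of the 5 genes had both Kc CLAMP libraries above Kc IgG, which 31.0% of the long genes had.

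The 4 genes other than lncRNA:flam thus had S2 CLAMP above and Kc CLAMP below IgG, a pattern shared by 14.4% of the long genes. Among the 21 other long genes whose window held under 60 genes, 8 (38.1%) had it. The median density of those 21 genes was 3.25, 6.72 and 5.64 in S2 CLAMP, 5.60 and 7.08 in Kc CLAMP, 0 in S2 IgG and 9.18 in Kc IgG. A high density of Kc IgG peaks was therefore present in other long genes whose windows were gene-poor.

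**Figure D2:**
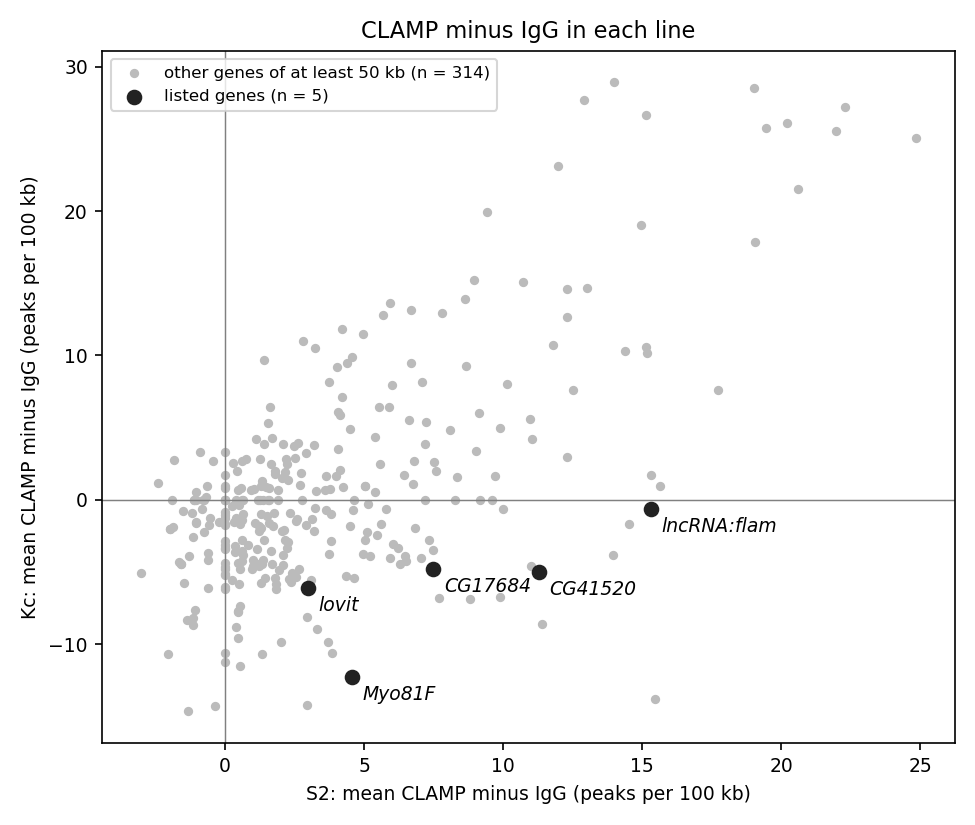
Mean CLAMP minus IgG in peaks per 100 kb, in S2 cells (horizontal axis) against Kc cells (vertical axis), for the 5 genes (black) and the other 314 genes of at least 50 kb (grey); lines mark 0. The 5 genes lie right of 0 for S2, from 3.00 in lovit to 15.3 in lncRNA:flam, and below 0 for Kc, from -12.3 in Myo81F to -0.630 in lncRNA:flam.

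Relative to the list-wide density, all 5 genes lay above 1 in both IgG libraries, but not in every CLAMP library. The density of CG41520 was 1.62, 4.22 and 2.79 times the list-wide density in S2 CLAMP, and 6.19 times it in S2 IgG. In Kc cells CG41520 was at 0.734 and 0.705 times in CLAMP and 1.56 times in IgG. lncRNA:flam was at 2.18, 3.93 and 2.74 times the list-wide density in S2 CLAMP and 2.17 times in S2 IgG. In Kc cells lncRNA:flam was at 3.26 and 3.46 times in CLAMP and 3.72 times in IgG, and Myo81F at 3.41 times in IgG. Other CLAMP values under 1 were lovit in S2 replicate 1 (0.485) and Kc replicate 1 (0.565), Myo81F in S2 replicate 1 and CG17684 in Kc replicate 1 (0.653).

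With every list cut to its 1165 strongest peaks by p, mean S2 CLAMP was below S2 IgG in all 5 genes. All lists then had the same length, but the S2 IgG list stayed whole, down to its weakest peaks. In lncRNA:flam an S2 IgG peak with a −log10 p-value of 3.56 was kept, while an S2 replicate 1 peak with 59.8 was dropped. The cut therefore does not compare peaks of equal strength. S2 replicate 3 alone lay above S2 IgG in lncRNA:flam. lncRNA:flam then kept 0, 0 and 5 peaks in S2 CLAMP and 3 in S2 IgG, and 7 and 1 in Kc CLAMP and 4 in Kc IgG. Myo81F kept 6, 8 and 22 peaks in S2 CLAMP and 23 in S2 IgG, and 12 and 2 in Kc CLAMP and 49 in Kc IgG. CG41520 kept 0, 0 and 5 peaks in S2 CLAMP and 7 in S2 IgG, and 2 and 0 in Kc CLAMP and 4 in Kc IgG. S2 replicate 3, with the shortest whole list among the CLAMP libraries, kept more peaks than any other CLAMP library in each gene except lncRNA:flam. lovit kept 6, 6 and 8 peaks in S2 CLAMP and 11 in S2 IgG, and 0 and 1 in Kc CLAMP and 10 in Kc IgG. CG17684 kept 3, 0 and 6 in S2 CLAMP and 8 in S2 IgG, and 3 and 1 in Kc CLAMP and 9 in Kc IgG. Both Kc CLAMP libraries were again below Kc IgG in every gene but lncRNA:flam.

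**Figure D3:**
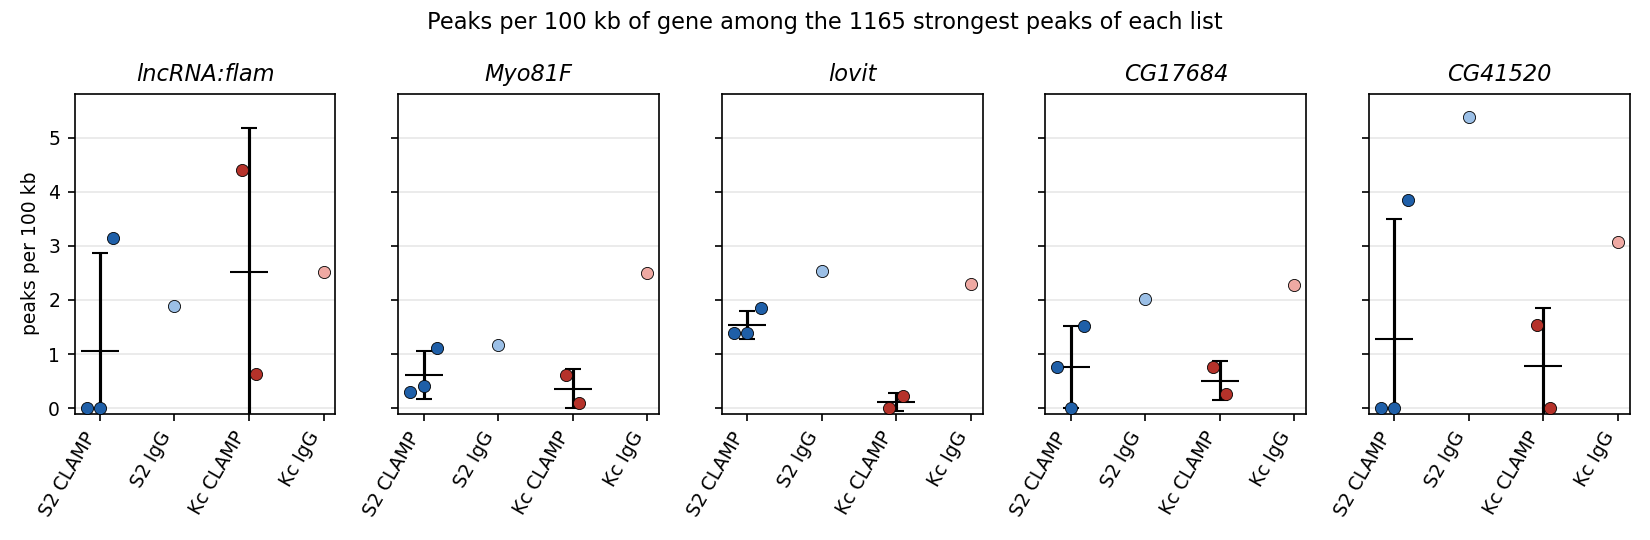
Peaks per 100 kb of gene (vertical axis) with every list cut to its 1165 strongest peaks, 1 panel per gene and the same group order as for whole lists; dots are libraries and bars with whiskers the mean ± SD. Lower whiskers are cut off just below 0, and mean S2 CLAMP lies below S2 IgG in all 5 panels. The S2 IgG list, of 1165 peaks, is whole.

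How far CLAMP and IgG peaks coincided differed between the lines. In lncRNA:flam 4.35, 2.44 and 5.56% of the S2 CLAMP peaks touched an S2 IgG peak, while 65.8 and 63.9% of the Kc CLAMP peaks touched a Kc IgG peak. The 95% Wilson intervals of the Kc shares were 49.9 to 78.8% and 47.6 to 77.5%, and cover counting error only. Over whole lists the shares were 5.54, 5.70 and 8.20% in S2 and 22.6 and 22.6% in Kc, so in the Kc line the overlap inside lncRNA:flam was the larger. The S2 IgG list is the shorter of the controls, and the part of its length in the S2 shares was not tested.

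In CG17684 24.1, 9.26 and 16.7% of the S2 CLAMP peaks and 94.7 and 80.6% of the Kc CLAMP peaks touched an IgG peak of their line. The shares were 42.9, 16.7 and 27.3% in S2 and 94.4 and 62.9% in Kc for lovit, and 35.7, 13.9 and 40% in S2 and 85.7 and 83.3% in Kc for CG41520. Myo81F had 21.9, 11.7 and 10.7% in S2 and 51.5 and 43.9% in Kc. In every gene each Kc library thus had a larger share over IgG than each S2 library. In CG41520 7, 28 and 8 of the 14, 36 and 15 S2 CLAMP peaks lay off the peaks of both IgG libraries. Of its 7 and 6 Kc CLAMP peaks 1 and 1 did so. In CG17684 12, 31 and 17 of 29, 54 and 30 S2 CLAMP peaks did so, and 1 and 6 of 19 and 31 Kc CLAMP peaks. Shares of whole lists off both controls were not taken. With the CLAMP peaks of all 5 libraries merged, 18.8% in CG41520 and 40.8% in CG17684 touched an IgG peak, against 14.5% on the main arms.

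**Figure D4:**
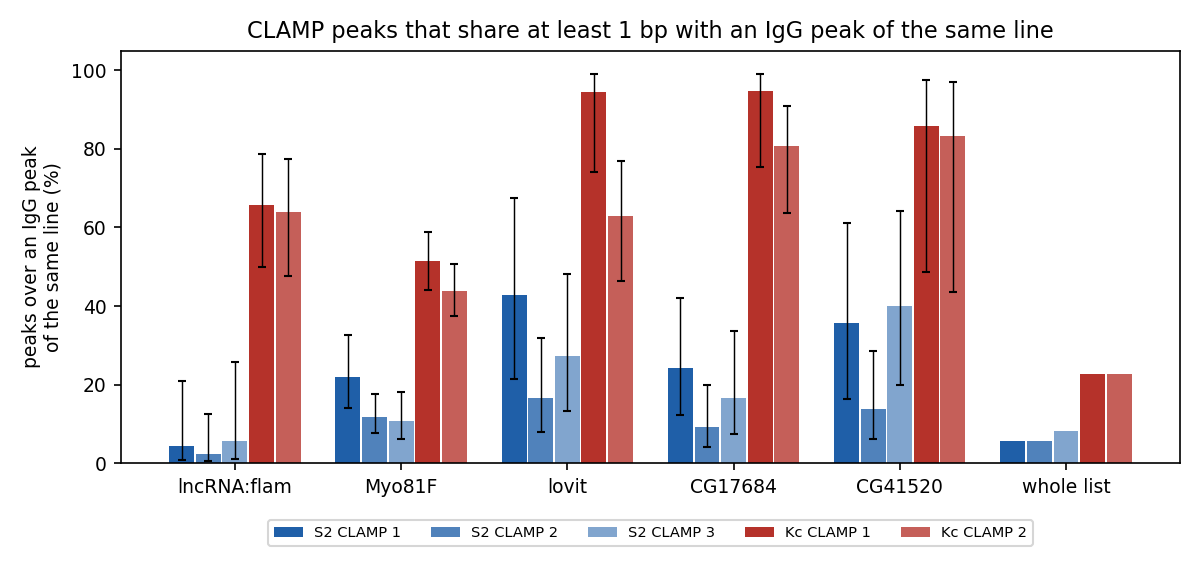
Percent of the CLAMP peaks of each library (vertical axis) that share at least 1 bp with a peak of the IgG library of the same line, by gene and for whole lists, as bars with 95% Wilson intervals on the gene values; S2 libraries stand left of Kc libraries. In lncRNA:flam the S2 values lie between 2.44 and 5.56%, and the Kc values between 63.9 and 65.8%.

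Inside lncRNA:flam most libraries shared more peaks with their own line than with the other, S2 replicate 2 being the exception. Of the S2 replicate 1 peaks, 87.0% coincided with a peak of S2 replicate 2, and 47.8 and 43.5% with a peak of the Kc CLAMP libraries, where the whole lists gave 64.9% and 46.3 and 53.0%. Of the S2 replicate 2 peaks, 58.5% coincided with S2 replicate 1 and 31.7% with S2 replicate 3, and 34.1 and 26.8% with the Kc CLAMP libraries. For these the whole lists gave 69.7 and 29.8%, and 49.0 and 52.4%. Of the Kc replicate 1 peaks, 28.9, 34.2 and 18.4% coincided with the S2 CLAMP libraries and 68.4% with Kc replicate 2, where the whole lists gave 48.3, 46.7 and 20.4% and 54.3%. These shares depend on the number of peaks in each list. Merging the CLAMP peaks of all 5 libraries gave 71 regions in lncRNA:flam, of which 6 were present in all 5 lists, 4 in the 3 S2 lists alone, 16 in the 2 Kc lists alone, and 32 in a single list. In that order these were 8.45, 5.63, 22.5 and 45.1% of the regions. On the main arms the shares were 6.57, 1.93, 4.03 and 57.8%.

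Of the 16 Kc regions of lncRNA:flam 14 touched an IgG peak, as did 1 of the 4 S2 regions and 3 of the 6 regions held by all. On the main arms 44.7% of the regions in the Kc lists alone, 26.1% of those in the S2 lists alone and 55.5% of those in all 5 lists touched one. In lncRNA:flam the S2 regions had their centres 8.67 to 21.3 kb inside the lower-coordinate end. That end is next to DIP1, where the promoter of the locus is known to lie. Kc regions lay in the same stretch, with centres from 10.2 to 16.7 kb inside that end, so the placement was not particular to S2. The strongest S2 region, X 21639976 to 21641139, had deposited folds over background of 6.20, 4.36 and 4.42 in S2 CLAMP and touched no peak of Kc CLAMP or IgG. Directly beyond it, X 21641341 to 21642854 had folds of 3.89 and 3.25 in Kc CLAMP and 1.88 in Kc IgG, with no S2 peak. Peak folds are the authors' values and rank peaks only within a list.

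Further Kc regions of lncRNA:flam without an IgG peak lay at X 21648341 to 21648754, with folds of 4.03 and 3.00, and near the far end at X 21783013 to 21783326, with folds of 5.36 and 2.41. Among the regions held by all libraries, X 21704136 to 21704635 had folds of 3.74, 3.88 and 2.51 in S2 CLAMP, 3.17 and 2.19 in Kc CLAMP and 2.05 in Kc IgG. X 21718484 to 21719331, with folds of 2.83, 2.53 and 2.16 in S2 CLAMP and 2.29 and 1.75 in Kc CLAMP, touched no IgG peak.

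When lncRNA:flam was divided into 10 equal segments from the lower coordinate, segment 1 held 1, 2 and 1 summits in S2 CLAMP, 9 and 7 in Kc CLAMP, 0 in S2 IgG and 5 in Kc IgG. In segment 2 the order turned, with 8, 7 and 6 in S2 CLAMP, 2 and 3 in Kc CLAMP, 1 in S2 IgG and 1 in Kc IgG. Segment 10 held 0, 3 and 1 in S2 CLAMP, 5 and 7 in Kc CLAMP, 0 in S2 IgG and 5 in Kc IgG. In both end segments Kc CLAMP and Kc IgG each held at least 5 summits while S2 CLAMP and S2 IgG held 0 to 3, and the part of the IgG signal in the difference between lines was not tested.

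No summit lay within 500 bp of an end of lncRNA:flam in any library. Counting from the lower end, the first summit lay 9.02, 8.38 and 8.996 kb inside the locus in S2 CLAMP, 9.69 and 9.68 kb in Kc CLAMP, 21.2 kb in S2 IgG and 10.5 kb in Kc IgG. The neighbouring genes on that side, lncRNA:CR44712 and DIP1, held 0 peaks in all 7 libraries. In the 100 kb beyond that end there were 9, 10 and 7 summits in S2 CLAMP, 9 and 5 in Kc CLAMP, 3 in S2 IgG and 9 in Kc IgG. In the 100 kb beyond the other end, towards the centromere, there were 7, 18 and 16 in S2 CLAMP, 21 and 22 in Kc CLAMP, 5 in S2 IgG and 27 in Kc IgG.

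**Figure D5:**
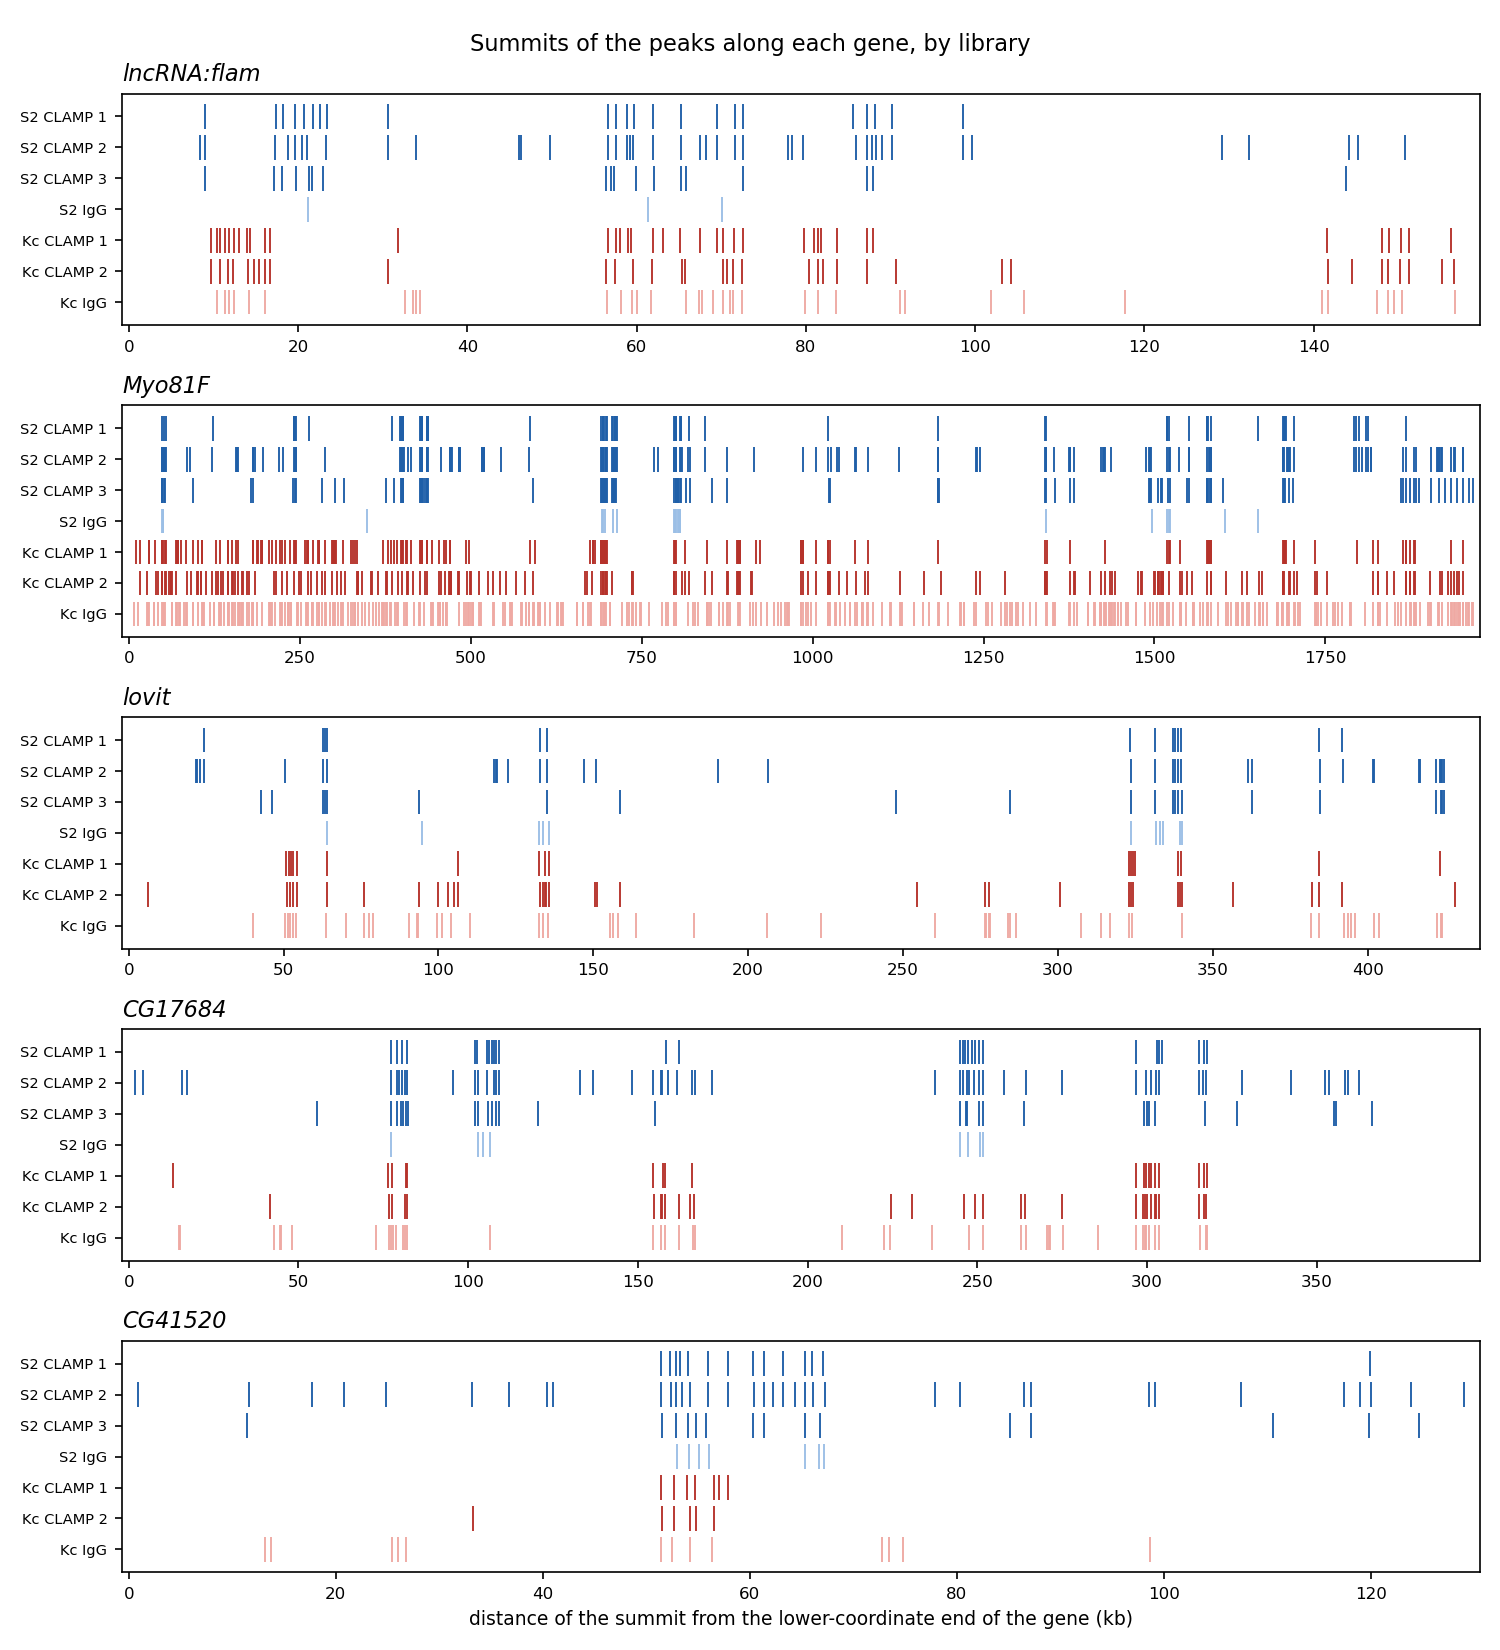
Summits of every peak along each of the 5 genes (horizontal axis, distance from the lower-coordinate end in kb), 1 row per library in the order S2 CLAMP, S2 IgG, Kc CLAMP and Kc IgG. In lncRNA:flam the Kc CLAMP and Kc IgG rows are filled in the first and last of 10 equal segments, where S2 CLAMP has 0 to 3 summits.

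Myo81F carried CLAMP peaks along its whole length. Its 395 merged regions included 18 present in all 5 CLAMP lists (4.56%, against 6.57% on the main arms) and 268 in a single list (67.8%, against 57.8%). Of the 18, 12 lay over an IgG peak, as did 55.5% of such regions on the main arms. Of the S2 replicate 1 peaks of Myo81F 83.6% coincided with S2 replicate 2, and of the S2 replicate 2 peaks 40.5% with S2 replicate 1, against 64.9 and 69.7% over whole lists. Of the Kc replicate 1 peaks 40.7% coincided with Kc replicate 2, and of the Kc replicate 2 peaks 28.3% with Kc replicate 1, against 54.3 and 56.1% over whole lists. The Kc IgG peaks of Myo81F coincided with a Kc CLAMP peak in 20.4 and 21.3% of cases, near the 23.6 and 22.6% over whole lists.

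The strongest shared regions of Myo81F were present in the controls too. At 3R 2085205 to 2089260 the highest folds were 8.75, 8.56 and 3.64 in S2 CLAMP, 4.65 and 6.09 in Kc CLAMP, 3.62 in S2 IgG and 3.37 in Kc IgG. A pair of shared regions at 3R 2143101 to 2143872 and 3R 2149196 to 2150529 touched no IgG peak, with S2 CLAMP folds of 5.33, 6.32 and 1.92 for the first and 6.18, 6.13 and 1.88 for the second. An S2 IgG peak at 3R 2218269 to 2218664 had a fold of 35.8 and ranked 7 of 1165 in that list, and was met by a peak of S2 CLAMP replicate 1 alone, with a fold of 2.46.

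In segment 1 of 10 in Myo81F, 3R 567076 to 763660, there were 4, 17 and 7 summits in S2 CLAMP, 35 and 37 in Kc CLAMP, 3 in S2 IgG and 54 in Kc IgG. Segment 2 held 8, 9 and 8 in S2 CLAMP, 35 and 26 in Kc CLAMP, 1 in S2 IgG and 61 in Kc IgG. Higher Kc CLAMP counts of Myo81F in these segments therefore stood beside high Kc IgG counts. With peaks over IgG left out, Myo81F averaged 3.36 ± 1.46 peaks per 100 kb (n = 3) in S2 CLAMP and 5.01 ± 1.33 (n = 2) in Kc CLAMP, errors being the SD.

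The 60 regions of lovit included 4 present in all 5 CLAMP lists (6.67%, against 6.57% of the main-arm regions). All 4 touched an IgG peak, as did 55.5% of such regions on the main arms. The region 3L 25369006 to 25372981 reached folds of 13.8, 10.3 and 3.24 in S2 CLAMP, 3.09 and 5.83 in Kc CLAMP, 3.15 in S2 IgG and 2.81 in Kc IgG, and its peak ranked 10 by p in the S2 replicate 1 list. For 3L 25300456 to 25301256 they were 12.6, 9.75 and 10.6 in S2 CLAMP, 2.19 and 2.36 in Kc CLAMP, 5.36 in S2 IgG and 3.08 in Kc IgG. Beside it, 3L 25299576 to 25300355 appeared in the S2 CLAMP lists alone (folds 4.88, 4.35 and 3.82) and touched no IgG peak.

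In segment 8 of 10 of lovit, 3L 25540768 to 25584171, every one of the 7 libraries had 6 summits, although the lists differ in length. Other segments were as full or fuller in some libraries, such as segment 10 with 10 summits in S2 replicate 2, segment 4 with 8 in Kc replicate 2 and segment 2 with 10 in Kc IgG. Segment 8 took in the shared region 3L 25560153 to 25562022, where S2 CLAMP folds were 12.3, 10.3 and 5.99 and Kc CLAMP folds 2.56 and 3.77. The IgG folds there were 4.98 in S2 and 3.28 in Kc.

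CG17684 and CG41520, whose products have no role given here, both lie on 2R. Of the 71 regions of CG17684, 9 appeared in the 3 S2 lists alone (12.7%, against 1.93% on the main arms) and 1 in the 2 Kc lists alone (1.41%, against 4.03%). Of the 9, 4 lay over an IgG peak, where 26.1% of such regions on the main arms did so. The S2 regions included 2R 2110627 to 2111434, with folds of 3.84, 2.39 and 2.44 in S2 CLAMP and 3.39 in S2 IgG. Segment 3 of CG17684, 2R 1945287 to 1984889, held 10, 11 and 10 summits in S2 CLAMP, 2 and 2 in Kc CLAMP, 3 in S2 IgG and 4 in Kc IgG. Segment 8 held 6, 7 and 4 in S2 CLAMP, 9 and 10 in Kc CLAMP, 0 in S2 IgG and 9 in Kc IgG.

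In CG41520 segment 5, 2R 1701011 to 1713998, held 9, 11 and 6 summits in S2 CLAMP, 6 and 4 in Kc CLAMP, 4 in S2 IgG and 3 in Kc IgG. Of its 32 regions 3 (9.38%) were present in all 5 lists, 5 (15.6%) in the 3 S2 lists alone, and 0 in the 2 Kc lists alone. On the main arms these shares were 6.57, 1.93 and 4.03%. All 3 shared regions touched an IgG peak, as did 55.5% of such regions on the main arms. All 14 peaks of S2 replicate 1 in CG41520 coincided with a peak of S2 replicate 2, while 41.7% of the peaks of S2 replicate 2 coincided with one of S2 replicate 1. Over whole lists these shares were 64.9 and 69.7%. All 7 S2 IgG peaks coincided with a peak of each S2 CLAMP library, where 50.5, 49.0 and 49.0% of the whole S2 IgG list did so. At 2R 1710184 to 1712584 an S2 region with folds of 2.01, 2.27 and 2.00 touched no IgG peak.

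Over the 5 genes together 629 regions were found, and 35 appeared in all 5 CLAMP lists, of which 26 touched an IgG peak. The regions seen in the 3 S2 lists alone numbered 29, with 10 over IgG, and those seen in the 2 Kc lists alone 36, with 30 over IgG. Regions in all 5 lists made up 5.56% of the 629, against 6.57% on the main arms. Those in the S2 lists alone made up 4.61%, against 1.93%, and those in the Kc lists alone 5.72%, against 4.03%. On the main arms 55.5, 26.1 and 44.7% of these classes, in that order, touched an IgG peak. Of the 629 regions 37.5% touched an IgG peak, against 14.5% of all regions on the main arms. The share found in 1 library only was 63.0%, against 57.8% on the main arms.

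The share of each gene under peaks was also taken. Peaks covered 7.77, 9.53 and 5.05% of lncRNA:flam in S2 CLAMP, 8.02 and 8.44% in Kc CLAMP, 0.50% in S2 IgG and 10.2% in Kc IgG. They covered 2.36, 3.65 and 2.41% of Myo81F in S2 CLAMP, 3.00 and 4.05% in Kc CLAMP, 0.57% in S2 IgG and 7.69% in Kc IgG. For CG41520 the cover was 7.36, 10.6 and 8.13% in S2 CLAMP, 3.32 and 3.99% in Kc CLAMP, 1.69% in S2 IgG and 5.09% in Kc IgG.

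Long genes whose densities, divided by the list-wide density, ran most like those of the 5 over the 7 libraries were sought among 271 candidates. CG17684 was most like DIP-lambda (Pearson r = 0.886), which lies on the same arm and had 4.48, 19.0 and 8.44 peaks per 100 kb in S2 CLAMP, 5.80 and 7.39 in Kc CLAMP, 1.85 in S2 IgG and 13.5 in Kc IgG, and then bma (0.773). lncRNA:flam was most like ome (0.885) and lncRNA:CR46482 (0.866), and Myo81F most like bru3 (0.940) and btsz (0.927). lovit was most like lncRNA:CR44833 (0.941) and CG46244 (0.932), and CG41520 most like CG42238 (0.947) and AstA-R1 (0.931). Apart from bru3, DIP-lambda and CG42238, the named matches had a density of 0 in S2 replicate 1. AstA-R1 and bma were also at 0 in both Kc CLAMP libraries, and lncRNA:CR44833 in S2 replicate 3 and Kc replicate 1. Coefficients for matches with so few peaks say little about likeness to the listed genes. The 7 points of each coefficient also share the length and strength of the libraries' lists.

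Other genes of the same kind of chromatin were counted from a list of 38, 33 of which lie in 1-Mb windows of under 60 genes. Of the 38, 28, 23 and 23 held a peak in S2 CLAMP, 22 and 26 in Kc CLAMP, 9 in S2 IgG and 23 in Kc IgG. As shares, these were 73.7, 60.5 and 60.5% in S2 CLAMP, 57.9 and 68.4% in Kc CLAMP, 23.7% in S2 IgG and 60.5% in Kc IgG. Of all genes, 33.1, 23.9 and 15.4% held a peak in S2 CLAMP, 26.0 and 25.9% in Kc CLAMP, 3.47% in S2 IgG and 20.2% in Kc IgG. Listed genes had a median length of 36.1 kb, against 1.71 kb for all genes, and a longer gene has more room for a peak.

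In all 5 CLAMP libraries 13 of the 38 held a peak (34.2%), where 6.28% of all 17684 genes did: rl, Dbp80, Snap25, Nipped-A, Parp1, nvd, Haspin, AGO3, Gprk1, Pzl, CG40470, l(3)80Fg and CG40006. Pzl, a Piezo-like channel gene next to Myo81F, had 3.38, 7.19 and 5.64 peaks per 100 kb in S2 CLAMP, 4.93 and 7.19 in Kc CLAMP, 1.69 in S2 IgG and 15.9 in Kc IgG. As in Myo81F, Kc IgG was the densest library in Pzl. This did not hold for all 13: a CLAMP library held the most peaks in rl, Nipped-A, nvd, AGO3 and l(3)80Fg. In Dbp80 Kc replicate 2 equalled Kc IgG. Gfat1 and eIF4B, 2 of the 38, held no peak in any of the 7 libraries, where 7705 of all 17684 genes held none.

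Genes of the piRNA pathway were counted from a list of 32, which takes in germline factors and is not limited to proteins acting on flamenco RNA. The 32 had a median length of 3.61 kb, against 1.71 kb for all genes, and a longer gene has more room for a peak. A peak was held by 18, 9 and 7 of them in S2 CLAMP, 11 and 11 in Kc CLAMP, 1 in S2 IgG and 6 in Kc IgG. These were 56.2, 28.1 and 21.9% in S2 CLAMP, 34.4 and 34.4% in Kc CLAMP, 3.12% in S2 IgG and 18.8% in Kc IgG, where all genes had 33.1, 23.9 and 15.4% in S2 CLAMP, 26.0 and 25.9% in Kc CLAMP, 3.47% in S2 IgG and 20.2% in Kc IgG. In all 5 CLAMP libraries 3 held a peak (9.38%, against 6.28% of all genes): AGO3, which lies in heterochromatin and encodes a germline Argonaute, Hsp83, which encodes a chaperone, and Trf2, which encodes a TBP-related factor. Of these Trf2 had 6, 6 and 3 peaks in S2 CLAMP, 9 and 9 in Kc CLAMP and 0 in both IgG libraries. fs(1)Yb, BoYb, Gasz, shu, nxf2, egg, krimp and moon, 8 of the 32, held no peak in any library. Of all 17684 genes 7705 held none, so genes without a peak were no more frequent in the list. The product of fs(1)Yb is needed to process flamenco RNA in ovarian somatic cells.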

How the data were processed

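CUT&RUN libraries were made from S2 and Kc cells with anti-CLAMP or rabbit IgG. Per the submitters' processing notes, reads went through FastQC, Trimmomatic, Bowtie2 and MACS2, with build dm6. The treatment of reads matching several places, duplicates, and any IgG control in peak calling are not given in the sources used here. For each library the authors deposited 1 narrowPeak list, with a fold (ratio) over background, −log10 p-value and −log10 q-value and a score per summit; the score was not used. The title and file of S2 replicate 3 carry different internal numbers, and the title was followed.

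Rows of a list that share an interval became 1 peak with its strongest summit. Peaks on the main arms were counted over genes of a RefSeq table (Release 6 plus ISO1 MT) with Python 3.11.15, pandas 2.3.3, numpy 2.4.6 and scipy 1.17.1. The counting was tested on simulated data. The table gives no strand or exons. Regions are merged CLAMP peaks, and overlap means at least 1 bp. The members and gene lists were chosen with earlier results of these data known. Every listed gene was named, with its neighbours, the 2 long genes most like it, and list genes held by all 5 CLAMP libraries or by none. The labels do not say that replicates came from separate cultures, so the permutation p reflects only how these libraries vary, which may be technical. Shares carry 95% Wilson intervals for counting error only. Alternatives were a q-value of 0.0001 or less, shorter lists, other overlap, margin and joining rules, removal of peaks over IgG, leaving out each library, and a replicate block.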

Additional observations from a re-analysis of the deposited data

Results flagged for a closer look

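CLAMP minus IgG had opposite signs in the lines for 4 of the genes, with all 3 S2 CLAMP libraries above S2 IgG and both Kc CLAMP libraries below Kc IgG. The S2 difference exceeded the Kc difference by 16.9 peaks per 100 kb in Myo81F, 9.10 in lovit, 12.3 in CG17684 and 16.3 in CG41520. Over the 5 genes together it did so by 15.1. These gaps between the lines were not tested, since each line has 1 IgG library and the genes were chosen on these counts. The S2 IgG list had 1165 peaks and the Kc IgG list 8615, and the part of list length in the gaps was not tested beyond the shortened lists described with the processing.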

How the results depend on the processing

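Over the 5 genes together, S2 minus Kc (-1.97 peaks per 100 kb) turned to 0.362 with lists cut to 5535 peaks, 0.340 at 1165 peaks and 0.292 without peaks over IgG. S2 CLAMP minus S2 IgG (5.57) turned to -0.875 at 1165 peaks, a length at which the S2 IgG list stayed whole. Kc CLAMP minus Kc IgG (-9.55) moved to -2.74 at a q-value of 0.0001, -1.99 at 1165 peaks and -12.7 with each summit row counted. At 1165 peaks S2 CLAMP minus S2 IgG was -0.839 in lncRNA:flam, -0.560 in Myo81F, -0.998 in lovit, -1.26 in CG17684 and -4.11 in CG41520. S2 minus Kc turned to 4.20 in lncRNA:flam without peaks over IgG and to 0.254 in Myo81F at 1165 peaks, and in CG41520 (11.7) moved to 0.513 at 1165 peaks. For lovit it turned to 0.461 (q-value), 0.653 (5535 peaks), 1.42 (1165 peaks), 0.422 (rows) and 1.15 (peaks over IgG left out). Kc CLAMP minus Kc IgG of lncRNA:flam turned to 2.52 at a q-value of 0.0001. The cause was not tested. Leaving out each library gave -3.70 to -0.821 for S2 minus Kc over the 5 genes, 3.84 to 6.71 for S2 CLAMP minus S2 IgG, -10.7 to -8.40 for Kc CLAMP minus Kc IgG, and -2.53 to 1.38 for S2 minus Kc in lovit.

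The other long genes (-0.717) stayed below 0 or reached 0 under every alternative run, from -0.952 to -0.361 with a library left out. With the replicate block, S2 minus Kc was -1.39 over the 5 genes and -0.361 over the other long genes. The block keeps only the libraries numbered 1 and 2, so these values are the same as without S2 replicate 3. Same-numbered libraries had deviations correlated at r = 0.113 over 319 genes, and with 2 pairs of numbers and no label of a shared day the numbers are not shown to pair the libraries. Depth is unknown, so a list's length limits what it can show.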
